A study of Homo sapiens with 12 samples.

Results

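The genes described here write or erase methyl groups on the lysines of histones, or belong to the BAP1 module that removes ubiquitin from histone H2A. They were chosen by name and function, with earlier results of these data known. They number 38 of the 50868 gene identifiers in a deposited table of RNA-seq read counts. By role they are 7 methyltransferases of histone H3 lysine 4 (H3K4), 5 of H3K36, 3 of H3K9, 2 of H3K27, 1 of H3K79, 2 demethylases of the amine oxidase type, 14 of the Jumonji C (JmjC) type, and 4 genes of the BAP1 module. The study compared 4 groups of 3 libraries, all from established human gastric cancer lines. MKN28 cells with ZNF165 knocked down (construct labelled LV-ZNF165-siRNA) were set against MKN28 cells given LV-Control, and MKN45 cells overexpressing ZNF165 (LV-ZNF165) against MKN45 cells given LV-Control. The genotype field calls both control groups WT. ZNF165 encodes a SCAN-domain zinc-finger protein that is made mainly in the testis among normal tissues. The construct in the description of knockdown replicate 2 is named for ZNF166 and that of replicate 3 for ZNF167, while the genotype field of both gives a ZNF165 knockdown, which was followed. The labels do not say whether libraries of a group came from separate cultures, so a p-value here covers the spread over libraries only, and that spread may be technical.

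Histone methylation is set by pairs of opposed enzymes. Methylated H3K4 marks promoters and enhancers, methylated H3K36 covers transcribed gene bodies and much intergenic chromatin, methylated H3K79 lies in active genes, and methylated H3K9 and H3K27 accompany silent chromatin. Amine oxidase demethylases use flavin, and JmjC demethylases use iron, oxygen and 2-oxoglutarate. Many genes of both kinds, among them KMT2C, KMT2D, KDM6A and ASXL genes, are recurrently mutated in human cancers, gastric carcinoma included.

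Library totals ranged from 12075813 to 19548445 counts, and levels are given as CPM, a gene's count over the library total scaled by TMM, a factor that centres most genes, within each comparison. ZNF165 had 74, 40 and 22 counts in the knockdown libraries, against 262, 186 and 287 in MKN28 controls, and 2115, 1977 and 1909 counts in overexpression libraries, against 156, 140 and 277 in MKN45 controls. Its level fell by 1.47 on the log2 scale in the knockdown (adjusted p 0.0459) and rose by 3.09 with overexpression (adjusted p 0.0109), and an exact permutation test gave the smallest possible p, 0.1, in each line. The knockdown call passed under 7 of 15 alternative settings. The 5 epithelial markers EPCAM, CDH1, KRT8, KRT18 and KRT19 were present in every library. Their summed level, in CPM of library totals as for all markers here, was 14451 to 36976 CPM in the knockdown, against 7142 to 7718 CPM in MKN28 controls, with 3 markers higher (KRT8, KRT18, KRT19), CDH1 lower and EPCAM not passed, and the part of this shift in the results below was not tested. Of the leukocyte markers, CD68 had 30.5 to 37.5 CPM in the knockdown, against 9.13 to 37.3 CPM in MKN28 controls, and the defining PTPRC and CD3E were at or near 0. Summed levels of 5 fibroblast markers were 27.02 to 43.97 CPM in the knockdown, against 88.97 to 122 CPM in MKN28 controls, nearly all COL1A1, and those of 4 endothelial markers stayed under 2.2 CPM. In MKN45 the leukocyte gene LYZ, which encodes lysozyme, had 160 to 242 CPM with overexpression, against 99.1 to 134 CPM in controls (edgeR, adjusted p 0.0997), and its part in the MKN45 results was not tested. Some libraries stood apart. Knockdown replicates 2 and 3 had 17620 and 17504 genes with a count, against 20560 in knockdown replicate 1 and 21102 to 22579 in MKN28 controls. Across genes, Spearman's correlation of level with transcript length was 0.0566, -0.0249 and -0.0305 in the knockdown libraries, against 0.308, 0.230 and 0.311 in MKN28 controls. The correlation of level with GC content was 0.0636, 0.338 and 0.331 in the knockdown libraries, against -0.0507, 0.0916 and -0.0977 in their controls. In MKN45, control replicate 2 had a length correlation of 0.149 and a GC correlation of 0.157, while the other controls had length correlations of 0.280 and 0.235 and GC correlations of -0.0502 and -0.0292.

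These genes made up a smaller part of the RNA in knockdown libraries than in their controls. Together the 38 genes took 0.105 ± 0.0228% of all counts in the knockdown and 0.398 ± 0.0719% in MKN28 controls (SD, n = 3 each), and in bulk RNA fewer cells of a type and less RNA per cell cannot be told apart. Of 37 genes tested, 22 fell, 2 rose and 13 did not pass (edgeR's quasi-likelihood test at a threshold of 0.05 on p-values adjusted by Benjamini and Hochberg over all genes tested). Across all 14939 genes tested, 21.6% were called lower, 19.2% higher and 40.8% in either direction. The median log2 fold change of the 37 genes was -1.66, against -0.20 over all genes tested. Relative to the mean of the controls, the median gene of the set lay at -1.35, -2.11 and -1.90 on the log2 scale in knockdown replicates 1, 2 and 3, while the median of all tested genes lay at -0.04, -0.38 and -0.41. Groups did not overlap for 30 genes lower and 3 higher in the knockdown, where 30.3% and 23.5% of all genes did so. ASXL3 was not tested, as it had 0 counts in all 6 MKN28 libraries.

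The counts depended on scaling and on single libraries, while 9 of the falls passed under all 15 alternatives run. Those 9 were ASH1L, ASXL2, KDM4A, KDM5B, KDM7A, KMT2A, KMT2C, KMT2D and SETD2. With library totals alone as the scale, 29 genes were lower and 0 higher, but the median of all genes also moved to -0.92 and that of the set to -2.36, and of all genes called 25.1% were higher, against 47.0% with TMM. The share of all genes called lower was then 26.1%. After a per-library trend on transcript length and GC content was removed, 20 genes were lower, 18 of them shared with the 22, and 1 was higher, where 23.3% of all genes were lower. Leaving out MKN28 control replicate 1 or control replicate 3 left 12 lower and 0 higher, where 10.6% and 12.2% of all genes were lower. Leaving out knockdown replicate 2 left 15 lower and 1 higher, where 14.5% of all genes were lower. Leaving out knockdown replicate 3 left 14 lower and 1 higher, where 14.4% of all genes were lower. Without knockdown replicate 1, 24 were lower and 4 higher, where 37.5% of all genes were lower. With knockdown replicate 1 alone, the median log2 fold change of the set was -1.38, against -0.15 over all genes. The lone library was there assumed to vary as the controls do.

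**Figure D1:**
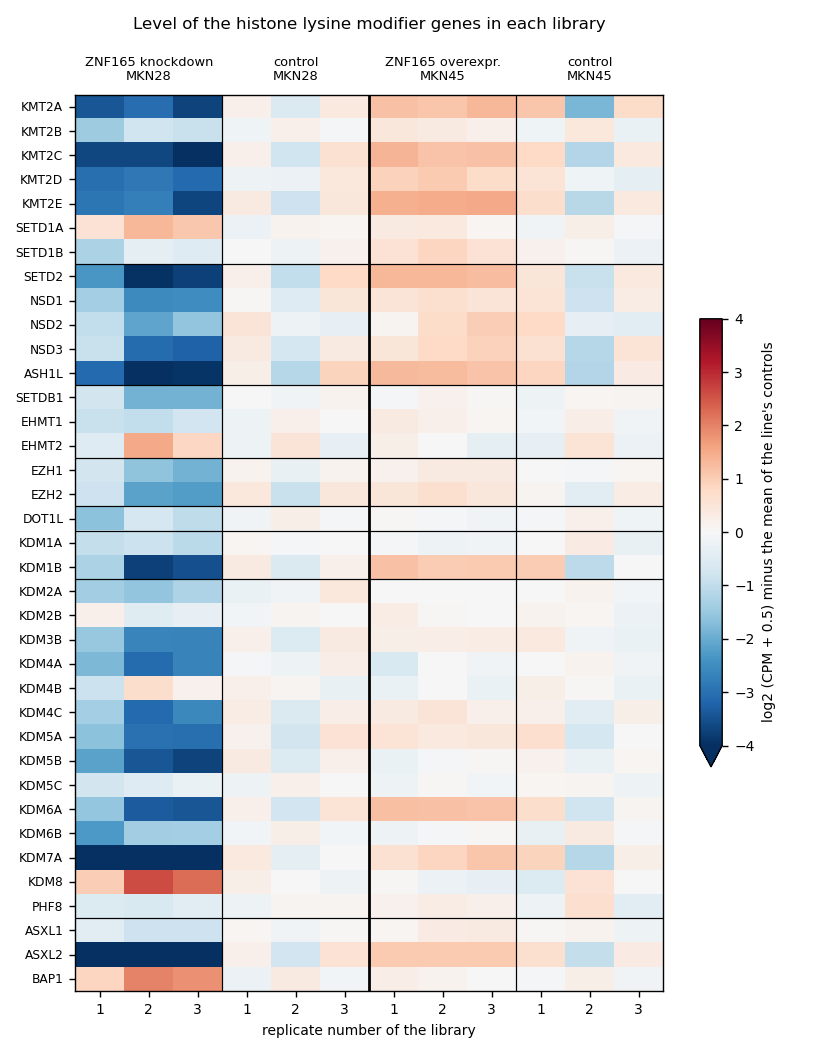
Level of 37 genes in each library as log2 (CPM + 0.5) minus the mean of the same line's controls (colour, blue lower and red higher), with genes in rows by role and libraries in columns by group. The 3 knockdown columns are mostly blue, with KDM8, BAP1 and SETD1A red in each, and MKN45 control replicate 2 is bluer than the other 2 MKN45 controls at KMT2A and KMT2C.

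The largest falls were those of KDM7A, ASXL2 and KMT2C, and the largest rise was that of KDM8. KDM7A, which removes methyl groups from H3K9 and H3K27 and lies on the minus strand of chromosome 7 (140084746 to 140177035, GRCh38 in GENCODE 29), had 3, 2 and 0 counts in the knockdown libraries, against 406, 225 and 287 in controls. Summed over libraries this was 0.646% of the control share (exact 95% interval 0.209% to 1.51%, counting error only). The fitted log2 fold change was -6.46 ± 0.81 (SE, adjusted p 0.00367). ASXL2, a partner and activator of the BAP1 deubiquitinase on chromosome 2 (25733753 to 25878516, minus strand), had 3.27, 3.55 and 2.29 CPM in the knockdown, against 97.3, 49.7 and 127 in controls, and fell by 4.90 ± 0.58 on the log2 scale (adjusted p 0.00367). KMT2C, which places methyl groups on H3K4 at enhancers (chromosome 7, 152134922 to 152436005, minus strand), had 2.89, 2.86 and 0.686 CPM, against 48.1, 23.6 and 63.95 in controls, and fell by 4.38 ± 0.71 (adjusted p 0.0037). KDM8 (chromosome 16, 27203495 to 27221768, plus strand), a JmjC oxygenase whose activity as a histone demethylase is disputed, had 5.58, 18.2 and 13.9 CPM in the knockdown, against 3.10, 2.50 and 2.16 in controls. Its log2 fold change was 2.28 ± 0.59 (adjusted p 0.0133), and it passed under 9 of 15 alternatives, which gave 0.88 to 2.76. The groups of all 4 genes did not overlap. The start regions of these 4 genes are shown so that the members that fell most can be set beside the one that rose most. They come from RefSeq on GRCh38.p14 and run from 250 bases before to 50 bases after the start, 5′ to 3′ on the gene's strand, with each match to GGGCGG or its reverse complement in capitals.
KDM7A, chr7:140176934-140177233, minus strand: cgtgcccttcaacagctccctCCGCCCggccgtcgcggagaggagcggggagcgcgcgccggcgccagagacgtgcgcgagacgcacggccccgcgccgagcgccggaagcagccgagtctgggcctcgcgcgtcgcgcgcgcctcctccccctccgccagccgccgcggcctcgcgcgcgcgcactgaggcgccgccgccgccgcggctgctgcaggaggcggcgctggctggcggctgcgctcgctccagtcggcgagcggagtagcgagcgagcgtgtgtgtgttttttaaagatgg
ASXL2, chr2:25878438-25878737, minus strand: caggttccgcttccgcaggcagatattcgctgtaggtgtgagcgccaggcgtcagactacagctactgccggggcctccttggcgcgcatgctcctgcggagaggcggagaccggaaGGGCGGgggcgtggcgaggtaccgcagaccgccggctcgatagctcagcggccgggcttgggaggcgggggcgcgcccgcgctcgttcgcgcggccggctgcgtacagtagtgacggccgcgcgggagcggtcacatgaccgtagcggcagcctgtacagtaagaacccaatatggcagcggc
KMT2C, chr7:152435954-152436253, minus strand: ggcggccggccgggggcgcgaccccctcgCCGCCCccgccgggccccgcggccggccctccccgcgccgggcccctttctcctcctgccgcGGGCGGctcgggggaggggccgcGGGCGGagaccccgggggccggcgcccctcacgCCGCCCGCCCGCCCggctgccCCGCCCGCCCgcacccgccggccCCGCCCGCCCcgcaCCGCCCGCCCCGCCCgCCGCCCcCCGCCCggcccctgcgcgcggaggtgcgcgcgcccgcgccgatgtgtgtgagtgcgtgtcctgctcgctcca
KDM8, chr16:27203276-27203575, plus strand: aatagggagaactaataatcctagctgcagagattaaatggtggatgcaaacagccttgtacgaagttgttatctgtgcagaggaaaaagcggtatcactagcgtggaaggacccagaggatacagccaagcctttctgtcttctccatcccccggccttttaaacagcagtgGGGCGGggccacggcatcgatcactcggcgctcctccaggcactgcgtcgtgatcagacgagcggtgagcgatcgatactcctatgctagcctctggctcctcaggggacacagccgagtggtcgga

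The start regions of the 3 genes that fell were rich in GC and in CpG, and that of KDM8 was less so. KDM7A's held 77.0% GC and 56 CpG, ASXL2's 69.7% and 39, KMT2C's 88.7% and 56, and KDM8's 54.7% and 17. KMT2C's carried 15 matches to GGGCGG, some of them overlapping, and each of the other 3 carried 1. Start regions were found for 34 of the 38 genes in the RefSeq table. The letters GGGCGG, on either strand, were present in 25 of the 34 (73.5%), against 44.6% of all 27305 start regions of the same length. CCAAT was found in 8 (23.5%, against 35.7% of all) and TATAAA in 0, against 11.95% of all. The median start region of the set held 30 CpG, against 14 over all genes, with a range of 1 in PHF8 to 63 in NSD2. Matches of letters are a description of these windows and show nothing of binding.

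Among the H3K4 methyltransferases, 4 of 7 fell and 0 rose in the knockdown, with a median log2 fold change of -3.06. Over all genes tested 21.6% fell and 19.2% rose, and the median was -0.20. KMT2A, which works with menin at promoters and is the target of leukaemic translocations, had 13.7, 17.9 and 11.2 CPM in the knockdown, against 175, 101 and 201 CPM in controls. All 3 knockdown libraries lay far below every control, and the gene fell by 3.48 ± 0.50 on the log2 scale (adjusted p 0.00367). Its closest relative KMT2B had 42.3, 65.3 and 61.6 CPM, against 102, 131 and 111 in controls, a log2 fold change of -1.02 that did not pass (adjusted p 0.0761). KMT2D, the other enhancer enzyme beside KMT2C, had 24.4, 27.2 and 22.97 CPM in the knockdown, against 177, 171 and 274 in controls, and fell by 3.06 ± 0.46 (adjusted p 0.00367). KMT2E, a SET-domain protein of the same family with weak or no reported methyltransferase activity, had 4.81, 5.43 and 2.63 CPM, against 50.6, 21.8 and 54.05, and fell by 3.29 ± 0.59 (adjusted p 0.00412). SETD1A and SETD1B carry out most H3K4 trimethylation, and neither passed. SETD1A had 125, 211 and 176 CPM in the knockdown, against 70.9, 93.4 and 89.7 in controls. Every knockdown library lay above every control, but the log2 fold change of 1.01 ± 0.43 did not pass (adjusted p 0.0802), and its levels overlapped when scaled by library totals alone, with 20.1, 18.6 and 19.8 CPM per kilobase in the knockdown, against 15.1, 18.3 and 18.8 in controls. SETD1B had 24.8, 46.7 and 42.2 CPM, against 60.7, 52.7 and 68.1, with a log2 fold change of -0.68 (adjusted p 0.252).

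All 5 H3K36 methyltransferases fell, each with no overlap between groups, where 21.6% of all genes fell and 30.3% lay lower without overlap. SETD2, the enzyme that trimethylates H3K36 behind elongating polymerase, had 6.54, 1.78 and 2.17 CPM in the knockdown, against 40.1, 17.2 and 60.1 in controls, and fell by 3.47 ± 0.72 on the log2 scale (adjusted p 0.00587). ASH1L, a dimethylating enzyme of the Trithorax group, had 6.86, 2.76 and 3.66 CPM, against 74.5, 28.3 and 116, and fell by 4.03 ± 0.68 (adjusted p 0.00372). For both genes the highest knockdown library was replicate 1 and the lowest control was replicate 2. The NSD enzymes, which place the dimethyl mark, had smaller fold changes. NSD1 had 26.7, 11.3 and 11.8 CPM in the knockdown, against 70.9, 47.6 and 96.8 in controls (log2 fold change -2.11, adjusted p 0.0127). NSD3 had 49.96, 10.6 and 9.49 CPM, against 119.5, 57.3 and 119.6 (log2 fold change -2.08, adjusted p 0.0361), so that knockdown replicate 1 came within reach of control replicate 2. NSD2 had 65.7, 29.6 and 42.7 CPM, against 186, 113 and 103 (log2 fold change -1.54, adjusted p 0.0294). These NSD calls ended once the length and GC trend was removed, where NSD1 was at -0.44, NSD2 at 0.17 and NSD3 at 0.07 on the log2 scale, so NSD2 and NSD3 changed sign.

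Of the 6 enzymes that write methylation of H3K9, H3K27 and H3K79, 2 fell and 0 rose. Of all genes tested, 21.6% fell and 19.2% rose, so nothing particular to these enzymes is read from the count. SETDB1, which trimethylates H3K9 at retroelements, had 18.7, 8.29 and 8.23 CPM in the knockdown, against 31.7, 28.6 and 35.4 in controls, and fell by 1.44 ± 0.52 on the log2 scale (adjusted p 0.0485), a call close to the threshold that was lost without any 1 of the controls and without knockdown replicate 2 or 3. EHMT1 and EHMT2 form a heterodimer that dimethylates H3K9, and neither passed. EHMT1 had 43.4, 40.4 and 46.7 CPM, against 69.6, 93.5 and 80.5, each knockdown library below each control (log2 fold change -0.90, adjusted p 0.107). EHMT2 had 68.4, 282 and 175 CPM, against 85.2, 140.4 and 78.1, with replicate 1 below and replicates 2 and 3 above all controls (log2 fold change 0.79, adjusted p 0.272). EZH2, the main catalytic subunit of Polycomb repressive complex 2 (PRC2), had 28.8, 11.3 and 10.5 CPM in the knockdown, against 69.2, 27.5 and 70.8 in controls. It fell by 1.72 ± 0.59 (adjusted p 0.0401), although knockdown replicate 1 lay above control replicate 2. Its relative EZH1 had 17.9, 9.67 and 7.77 CPM, against 33.9, 24.6 and 33.8, with no overlap, and its p lay just over the threshold (log2 fold change -1.38, adjusted p 0.054). DOT1L, the only known H3K79 methyltransferase, had 19.6, 38.7 and 30.4 CPM, against 55.96, 73.97 and 58.7 (log2 fold change -1.09, adjusted p 0.0807).

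Among the demethylases, 10 of 16 fell and 1, KDM8, rose, where 21.6% of all genes fell and 19.2% rose. KDM1A (LSD1), which demethylates H3K4 within corepressor complexes, had 64.97, 70.3 and 59.9 CPM in the knockdown, against 133, 121 and 129 in controls, and its log2 fold change of -0.97 did not pass (adjusted p 0.0773). The second amine oxidase, KDM1B, had 15.4, 2.37 and 2.86 CPM, against 48.4, 25.3 and 43.7, and fell by 2.50 ± 0.76 on the log2 scale (adjusted p 0.0241), with knockdown replicate 1 far above the other 2. KDM5 enzymes, which remove H3K4 trimethylation, were unequal. KDM5B had 36.9, 14.8 and 12.1 CPM in the knockdown, against 209, 112 and 188 in controls, and fell by 2.99 ± 0.57 (adjusted p 0.00479). KDM5A had 13.7, 5.13 and 5.03 CPM, against 49.2, 26.5 and 65.3, and fell by 2.56 (adjusted p 0.00956), a call that ended at -0.34 with the trend removed (adjusted p 0.374). KDM5C, the X-linked member, had 88.9, 103 and 123 CPM, against 127, 168 and 149, each knockdown library below each control, at a log2 fold change of -0.50 that did not pass (adjusted p 0.354).

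The H3K27 demethylases of the KDM6 pair both fell. KDM6A, a component of the KMT2C and KMT2D complexes, had 7.63, 1.87 and 1.71 CPM in the knockdown, against 26.7, 13.4 and 34.4 in controls, and fell by 2.71 ± 0.72 on the log2 scale (adjusted p 0.0143). KDM6B had 12.6, 24.1 and 24.7 CPM, against 59.2, 74.9 and 59.9, and fell by 1.66 ± 0.48 (adjusted p 0.0194), here with replicate 1 as the lowest library. Of the KDM4 enzymes, which act on H3K9 and H3K36, KDM4A had 25.8, 10.4 and 13.8 CPM, against 86.8, 79.1 and 108, and fell by 2.45 ± 0.51 (adjusted p 0.00592). KDM4C, at 3.85, 0.789 and 1.37 CPM, against 13.3, 6.99 and 12.7, fell by 2.43 (adjusted p 0.0178), whereas KDM4B had 18.4, 54.7 and 37.6 CPM, against 38.7, 35.99 and 27.001, and its groups overlapped (log2 fold change 0.12, adjusted p 0.864). KDM3B, an H3K9 demethylase, had 31.1, 14.01 and 13.7 CPM in the knockdown, against 102, 60.6 and 115 in controls, and fell by 2.24 (adjusted p 0.00935). KDM2A, which binds unmethylated CpG islands and demethylates H3K36, had 112, 98.4 and 124 CPM, against 245, 265 and 390.4, and fell by 1.43 (adjusted p 0.0236). Its relative KDM2B had 52.1, 32.3 and 35.9 CPM, against 41.5, 48.7 and 44.9, with overlapping groups (adjusted p 0.781). PHF8, the relative of KDM7A that prefers H3K9, had 14.4, 13.8 and 15.8 CPM, against 18.2, 22.9 and 22.8. Its groups did not overlap, but the log2 fold change of -0.54 did not pass (adjusted p 0.367).

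Within the BAP1 module the deubiquitinase rose and ASXL2 fell. BAP1 itself (chromosome 3, 52401013 to 52410350, minus strand), which removes ubiquitin from H2A together with an ASXL partner, had 65.5, 143 and 129 CPM in the knockdown, against 30.2, 46.2 and 33.1 in controls. The log2 fold change was 1.62 ± 0.48 (adjusted p 0.0218), and it passed under 8 of 15 alternatives, which gave 0.74 to 2.02. It did not pass with library totals alone, with the replicate block and the trend removed together, without MKN28 control replicate 1 or 3, without knockdown replicate 2 or 3, or without both of these. ASXL1 had 94.9, 72.998 and 72.3 CPM, against 137, 117 and 134, each knockdown library below each control, with a log2 fold change of -0.69 that did not pass (adjusted p 0.196).

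**Figure D2:**
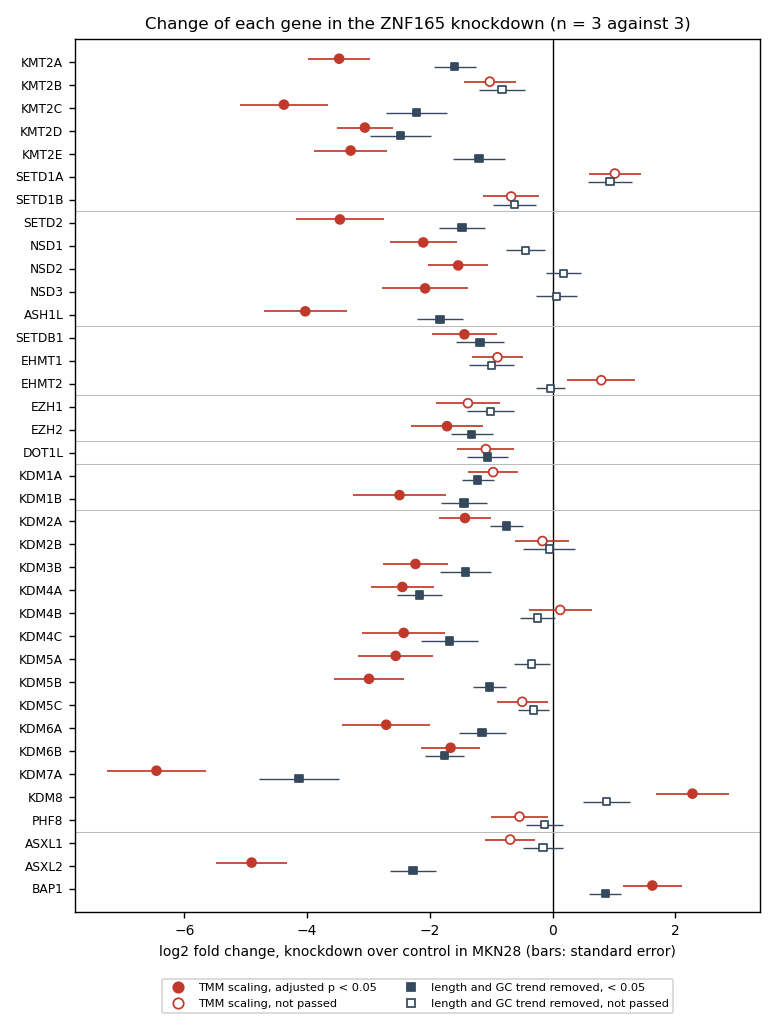
Log2 fold change of each gene, knockdown over control in MKN28, with its standard error (3 libraries against 3), in rows by role, for TMM scaling (circles) and after removal of the length and GC trend (squares). Filled symbols passed an adjusted p of 0.05, and most squares lie nearer 0 than their circles. Of the genes that passed with TMM scaling, NSD2 and NSD3 cross 0. In both fits 32 of the 37 genes lie below 0, so some that did not pass with TMM scaling cross it downward.

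Falls within the set ran with transcript length and base composition, as they did over all genes. Transcript length in the set had a median of 6844 bases, against 2989 over genes tested, with a range of 2462 in KDM8 to 19419 in KMT2D. Across the 37 genes Spearman's correlation of the knockdown log2 fold change with transcript length was -0.585, against -0.538 across 14864 genes, and with GC content 0.765, against 0.524. Genes share libraries and are not independent replicates, so no p is given. Of the 18 genes under the set's median GC of 50.7%, 17 fell and 0 rose, while of the 18 above it 4 fell and 2 rose. The 4 that fell above it were KMT2D, SETDB1, KDM2A and KDM6B, and KDM4A lay at the median. With the trend removed per library, the median log2 fold change of the set was -1.03, KDM7A was at -4.13, ASXL2 at -2.28, KMT2D at -2.48, KMT2C at -2.22 and KDM4A at -2.17. KDM8 was then at 0.88 and did not pass (adjusted p 0.0905), and BAP1 was at 0.86 (adjusted p 0.0263).

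**Figure D3:**
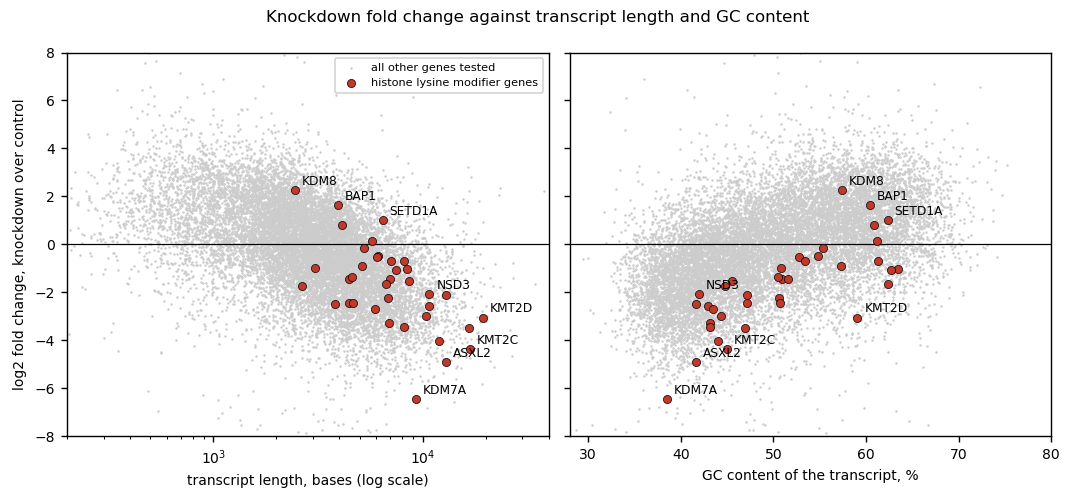
Knockdown log2 fold change in MKN28 against transcript length in bases (left, log scale) and GC content in percent (right), for all genes tested (grey) and for the 37 genes of the set (red). The red points follow the slope of the grey cloud, with Spearman's correlation -0.585 for length and 0.765 for GC content.

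For paralogs of the same or a similar activity, the balance within a pair was described. The share of the first of a pair, from levels per kilobase, was compared over 13 pairs. It did not overlap between the groups in 9 pairs in the knockdown, in 3 in the overexpression and in 7 between the control lines. Over single genes, 53.8%, 38.1% and 52.3% of all genes tested did not overlap in these comparisons, and no such share was computed for other pairs of genes, so nothing particular to these pairs is read from the counts. KMT2A made up 14.1, 12.2 and 8.48% of KMT2A plus KMT2B in the knockdown libraries, against 46.6, 28.2 and 47.9% in controls. SETD1A made up 85.3 ± 1.20% of SETD1A plus SETD1B, against 63.8 ± 4.88% (SD, n = 3 each). KDM5B held 10.99 ± 7.61% of KDM5B plus KDM5C in the knockdown, against 40.04 ± 10.7% in controls. For KDM7A the share of KDM7A plus PHF8 was 0.868, 0.925 and 0%, against 37.6, 21.4 and 26.2%. ASXL1 made up 97.95 ± 0.478% of ASXL1 plus ASXL2, against 72.98 ± 7.71%. KDM4A held 64.2, 19.4 and 31.9% of KDM4A plus KDM4B, against 74.1, 73.7 and 83.6%, with replicate 1 close to the controls. The shares of EZH1 and EZH2 overlapped, EZH1 making up 29.5 ± 3.27% in the knockdown and 25.7 ± 7.02% in controls. The first gene of a pair usually differs from the second in length and GC content too, and the part these play in the shares was not tested. The strand setting and the handling of multiply mapped reads are not given, so reads shared by near-identical stretches of paralogs could be split between them.

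**Figure D4:**
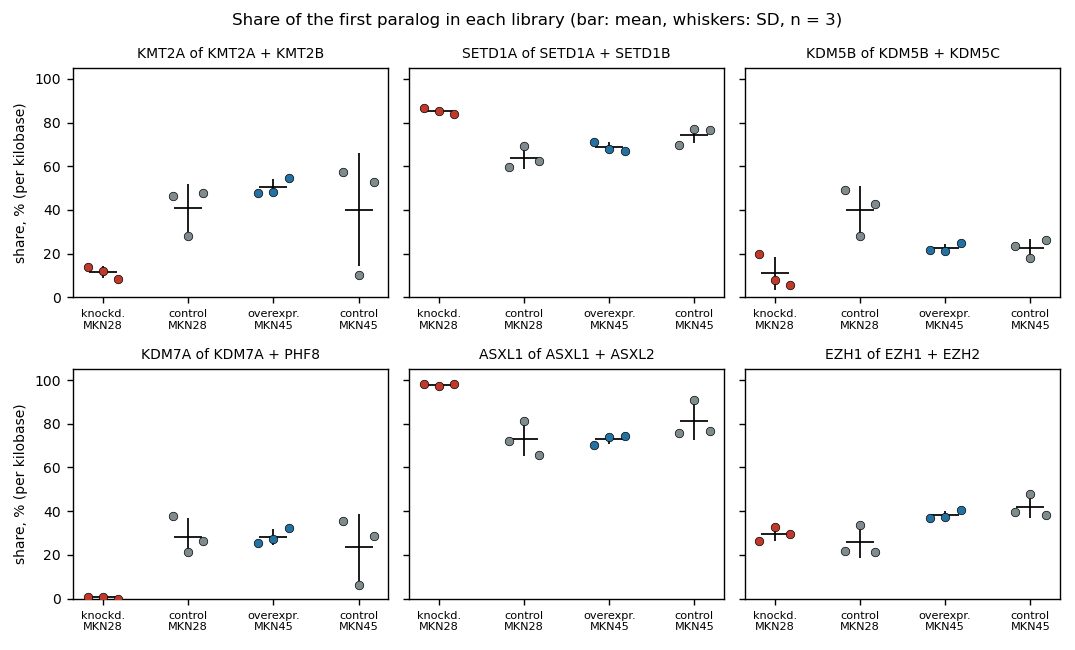
Share of the first paralog of 6 pairs in percent of the pair, from levels per kilobase, in each of the 12 libraries by group, with the mean and SD of 3 libraries. Knockdown libraries lie apart from MKN28 controls in 5 of the pairs and among them for EZH1, and MKN45 control replicate 2 is low for KMT2A and KDM7A.

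In MKN45, no gene of the set passed with ZNF165 overexpressed (0 of 37). Of 15833 genes tested, 0.935% were called higher and 0.196% lower (1.13% in either direction). The unadjusted p of edgeR was under 0.05 for 8 of the 37 and for 4242 of the 15833. DESeq2 called 4 of the set higher, KMT2D, KMT2E, SETD2 and KDM6A, where it called 6.56% of all genes higher and 5.03% lower. Of all the genes it called, 56.6% were higher, against 82.7% with edgeR. The set took 0.347 ± 0.0109% of counts in the overexpression and 0.262 ± 0.0451% in MKN45 controls (SD, n = 3 each). Its median log2 fold change was 0.31, against -0.00 over all genes, with 28 genes above 0 and 9 below. In 10 genes the overexpression libraries lay above all controls and in 0 below, where 19.4% and 18.7% of all genes did so. KMT2E had 93.3, 96.7 and 100.3 CPM in overexpression libraries, against 56.7, 15.7 and 45.9 in controls, a log2 fold change of 1.29 ± 0.40 (adjusted p 0.102). SETD2 had 124, 125 and 118 CPM, against 69.5, 26.3 and 65.5 (log2 fold change 1.19 ± 0.34, adjusted p 0.0857), and KDM6A had 80.6, 78.4 and 76.1 CPM, against 56.3, 19.7 and 37.1 (log2 fold change 1.05, adjusted p 0.111). In all 3 genes the overexpression libraries were close together and the controls spread, with control replicate 2 lowest. KMT2C had 81.7, 71.03 and 71.9 CPM, against 55.2, 13.9 and 41.4, and ASH1L had 76.5, 74.5 and 69.1 CPM, against 56.2, 13.3 and 38.5. ASXL2 had 77.9, 76.99 and 77.6 CPM with overexpression, against 58.2, 19.003 and 46.6 in controls. KMT2A had 187, 176 and 207 CPM, against 176, 22.7 and 137, so its groups overlapped, and control replicate 2 lay far below the other 5 libraries.

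Leaving out MKN45 control replicate 2 gave 2 calls, KMT2E at 0.91 and SETD2 at 0.86 on the log2 scale. Leaving out control replicate 1 gave 1, KMT2D, and removal of the length and GC trend gave 1, SETD2. In these fits 8.26%, 3.66% and 6.97% of all genes were called. Across the 37 genes Spearman's correlation of the overexpression log2 fold change was 0.529 with length and -0.600 with GC content, against 0.405 and -0.450 across all genes. Log2 fold changes within 0.1 of 0 were those of KDM2A, DOT1L, SETDB1 (0.05), EHMT2 (-0.09) and KDM5C (-0.10). KDM2A was at 159, 154 and 156 CPM with overexpression and 154, 170.4 and 143 in controls (log2 fold change 0.00), and DOT1L at 105, 100.3 and 94.2 CPM and 100.1, 119 and 91.5 in controls (log2 fold change -0.05). BAP1 had 80.3, 74.7 and 67.9 CPM, against 63.1, 79.3 and 60.3 (log2 fold change 0.14, adjusted p 0.696). ASXL3 had 12, 11 and 9 counts with overexpression, against 4, 5 and 18 in controls.

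**Figure D5:**
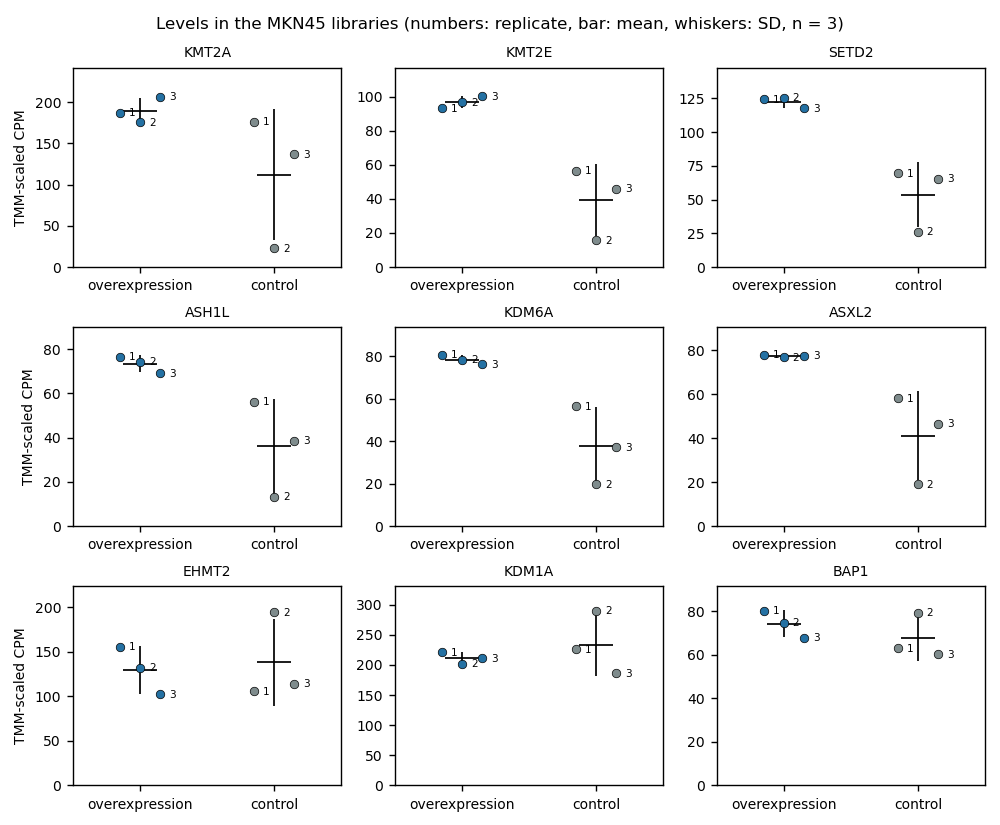
TMM-scaled CPM of 9 genes in the MKN45 libraries, overexpression left and control right, with replicate numbers, means and SD (n = 3). Control replicate 2 is the lowest library for KMT2A, KMT2E, SETD2, ASH1L, KDM6A and ASXL2 and the highest control for EHMT2, KDM1A and BAP1.

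The arms of the study share no library, and most genes of the set had fold changes of opposite sign in them. Of the 22 genes that fell in the knockdown, 19 had a positive log2 fold change with overexpression, and of 32 with a negative one in the knockdown, 26 did. Over all genes tested in both arms, 2630 of the 3039 that fell in the knockdown (86.5%) and 5253 of the 7505 with a negative value there (70.0%) had a positive one with overexpression, so the first count of the set is near that of all genes. The log2 fold changes of the arms were added, so that mirror-image responses give a total of 0. This total differed from 0 for 14 genes, 12 below and 2 above, where 9.38% of 17266 genes were below and 8.09% above. KDM7A stood at -5.74 ± 0.89 (SE, adjusted p 0.00329), ASXL2 at -3.93 ± 0.62 (adjusted p 0.00355) and KDM5B at -3.05 ± 0.58 (adjusted p 0.00646). Above 0 were KDM8 at 2.07 (adjusted p 0.0466) and BAP1 at 1.80 (adjusted p 0.0298). Of the 12 fits that left out 1 library, BAP1 did not pass in 9 and KDM8 did not pass in 10, all but those without knockdown replicate 1 or MKN45 control replicate 2. SETD2, at -2.21 (adjusted p 0.0544), and KMT2E, at -1.94 (adjusted p 0.0568), did not pass. ZNF165 itself stood at 1.67 (adjusted p 0.0421), its rise with overexpression being larger than its fall in the knockdown. The arms differ in line and in the direction and size of the ZNF165 change, and these cannot be told apart.

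Between the control cells of the lines, 8 genes of the set were lower in MKN45 than in MKN28 and 0 higher. Of 16088 genes, 20.4% were lower and 21.4% higher (41.8% in either direction). The median log2 fold change of the set was -0.46, against -0.04 over all genes. Spearman's correlation of this fold change with transcript length was -0.529 in the set, against -0.185 across all genes. With GC content it was 0.241, against 0.0999. With the length and GC trend removed the median of the set was -0.18, against -0.05 over all genes. That fit gave 12 genes lower and 3 higher, where 27.4% of all genes were lower. The labels do not pair libraries of the lines by replicate number. Deviations of same-numbered libraries correlated, but MKN45 control replicate 1 matched an MKN28 control of another number best. A fit blocked on the numbers gave 16 lower and 1, BAP1, higher, where it called 28.5% of all genes lower and 27.1% higher. Markers also differed between the control lines: LYZ had 99.1 to 134 CPM of library totals in MKN45 controls, against 0 to 0.214 in MKN28 controls, CD68 had 3.13 to 5.72, against 9.13 to 37.3, and COL1A1 had 17.03 to 18.6, against 88.8 to 122. None of the 5 epithelial markers passed between the lines, and the part of the marker differences in the results was not tested. H3K4 methyltransferases made up 4 of the 8. SETD1B had 23.99, 23.5 and 17.8 CPM in MKN45 controls, against 77.3, 68.3 and 85.5 in MKN28 controls, a log2 fold change of -1.82 ± 0.32 (adjusted p 0.000601) with no overlap. SETD1A had 43.8, 61.3 and 45.9 CPM in MKN45, against 90.3, 121 and 113 in MKN28 (log2 fold change -1.10, adjusted p 0.0136). KMT2D had 157, 102 and 80.3 CPM, against 225, 221 and 344 (-1.22, adjusted p 0.0141), and KMT2B had 65.2, 107 and 61.3 CPM, against 130.0, 169.6 and 139.9 (-0.91, adjusted p 0.0408). KDM2A had 152, 180.3 and 139.8 CPM in MKN45 controls, against 312, 344 and 490.4 in MKN28 controls, a log2 fold change of -1.28 ± 0.31 (adjusted p 0.00557). KDM2A and SETD1B passed in the same direction under all 14 alternatives run. ASXL2 had 57.3, 20.1 and 45.4 CPM, against 124, 64.5 and 159.6 (log2 fold change -1.50, adjusted p 0.0168), KDM1B had 31.7, 7.72 and 15.4 CPM, against 61.6, 32.8 and 54.8 (log2 fold change -1.44, adjusted p 0.0296), and NSD2 had 119.7, 57.5 and 48.6 CPM, against 236, 146 and 129.7 (log2 fold change -1.18, adjusted p 0.0323). ASXL3 had 4, 5 and 18 counts in MKN45 controls, against 0 in each MKN28 control, which is at least 9.86-fold higher, with the MKN28 group as a whole set to 3 counts. Without MKN45 control replicate 3 the bound was 4.88-fold. Of the set, 11 genes lay lower in every MKN45 control than in every MKN28 control and 2 lay higher, where 25.4% and 26.9% of all genes did so. Leaving out MKN45 control replicate 3 left 3 of the 8 calls, and leaving out MKN28 control replicate 1 or 3 left 4.

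By CPM per kilobase of transcript, from library totals, KDM1A, KDM2A, KDM5C and EHMT2 had the highest mean levels of the set in both control groups. KDM1A had 73.2 ± 12.1 in MKN45 controls and 55.5 ± 5.16 in MKN28 controls, KDM2A had 21.5 ± 1.17 and 57.4 ± 15.9, KDM5C had 38.6 ± 4.66 and 32.2 ± 3.16, and EHMT2 had 31.8 ± 8.62 and 32.3 ± 9.35 (mean ± SD, n = 3 each). KDM4A had 21.2 ± 1.44 in MKN45 controls and 27.2 ± 5.14 in MKN28 controls, and EZH2 had 28.5 ± 13.3 in MKN28 controls, so the fourth place did not differ from the next beyond the spread in either line. KDM2A and KDM1A, first and second in MKN28 controls, did not differ beyond their spread. In the knockdown EHMT2 had the highest mean at 28.9 ± 10.97, followed by BAP1 at 20.5 ± 3.24 and SETD1A at 19.5 ± 0.779, where in MKN28 controls BAP1 stood at 12.2 ± 2.27 and SETD1A at 17.4 ± 2.0002. KDM1A stood at 16.4 ± 4.82 in the knockdown. This order held in knockdown replicates 2 and 3, while in replicate 1 KDM1A came first at 21.9, then SETD1A at 20.1, BAP1 at 17.2 and EHMT2 at 17.1. At the low end, KDM7A had 0.0112 ± 0.0107 in the knockdown and 1.87 ± 0.596 in MKN28 controls, and KDM8 had 3.55 ± 1.05 and 1.40 ± 0.290.

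Partner subunits, readers and related enzymes in 10 lists, 98 genes in all, were described beside the set. Their calls come from the main fits alone and were not followed under the alternative settings. In the knockdown 11 of 97 tested rose, 29 fell and 57 did not pass, with a median log2 fold change of -0.81, where 19.2% of all genes rose and 21.6% fell. Of 12 subunits of the H3K4 methyltransferase complexes, 2 rose and 2 fell. Among the core shared by these complexes the scaffold WDR5 rose, and RBBP5, ASH2L and DPY30 did not pass. WDR5 had 2902, 3197 and 2655 counts in the knockdown, against 2096, 2622 and 2417 in controls (log2 fold change 1.41, adjusted p 0.0261), CXXC1 of the SETD1 complexes was at 1.52 (adjusted p 0.0462), PSIP1, which tethers KMT2A to chromatin, was at -2.78 (adjusted p 0.00553), and NCOA6 of the KMT2C and KMT2D complexes was at -2.28 (adjusted p 0.00708). In PRC2, 5 of 12 fell and 1 rose. SUZ12, the core scaffold of PRC2, had 48, 55 and 23 counts in the knockdown, against 1324, 711 and 1681 in controls (log2 fold change -3.82, adjusted p 0.00367), while the elongin-binding EPOP was at 1.76 (adjusted p 0.0164). Polycomb repressive complex 1 had 3 of 18 higher and 4 lower, and its ubiquitin ligases parted, RING1 at 2.05 (adjusted p 0.0145) and RNF2 at -2.33 (adjusted p 0.0444). Among other lysine methyltransferases 2 of 12 rose and 3 fell. SUV39H1, which trimethylates H3K9 in constitutive heterochromatin, had 612, 2226 and 1614 counts, against 331, 711 and 312, with a log2 fold change of 2.95 (adjusted p 0.00853), and SETDB2 was at -3.52 (adjusted p 0.00574). Of 9 corepressor subunits around KDM1A, 4 fell and 0 rose, ZMYM2 with 155, 38 and 16 counts, against 2296, 1328 and 2485 (log2 fold change -4.04, adjusted p 0.00379). OGT, the O-GlcNAc transferase found with BAP1, had 200, 11 and 29 counts in the knockdown, against 5883, 1293 and 4741 in controls (log2 fold change -4.85, adjusted p 0.00495), the 1 of 6 BAP1 partners that fell, with 0 rising. The remaining lists gave 1 higher and 3 lower of 8 other JmjC proteins, 1 and 3 of 6 readers and partners of H3K9 methylation, 0 and 3 of 6 DOT1L partners and 1 and 1 of 8 cofactor genes. With overexpression 0 of 96 passed, with a median of 0.09, where 1.13% of all genes passed. The unadjusted p of edgeR was under 0.05 for 22 of the 96 and for 4242 of all 15833 genes.

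Between the control lines 4 of the 98 were higher and 18 lower in MKN45, where 21.4% and 20.4% of all genes were. CBX1, which encodes the H3K9 methylation reader HP1 beta, had 2893, 1362 and 2268 counts in MKN45 controls, against 0, 2 and 0 in MKN28 controls, and 0, 1 and 1 in the MKN28 knockdown. The summed counts, scaled by library totals, stood in a ratio of 3574 (exact 95% interval 989 to 29516, counting error only). EZHIP, which encodes an inhibitor of PRC2 normally made in the germ line, had 0 counts in each MKN45 library, against 88, 85 and 95 in MKN28 controls, which is at least 81.5-fold lower in MKN45, with its control group as a whole set to 3 counts. HR, which encodes a JmjC-domain corepressor, likewise had 0 in each MKN45 library, against 54, 48 and 24 in MKN28 controls, which is at least 38.3-fold lower in MKN45 on the same basis. HDAC1, the deacetylase bound to KDM1A, was higher in MKN45 by 1.35 on the log2 scale (adjusted p 0.00362), and MLLT3, a DOT1L partner, by 2.58 (adjusted p 0.00127), while MTF2 of PRC2 was at -2.51 (adjusted p 0.00272) and AFF1 at -2.02 (adjusted p 0.00585).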

How the data were processed

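The authors deposited whole-number read counts per Ensembl gene, with 1 column per library. Per the submitters' processing notes the tools were HISAT2 for alignment and StringTie for transcripts. How reads were counted, on which build and annotation and with what strand setting, is not given in the sources used here. Reads of a gene and of an overlapping or antisense neighbour can therefore not be told apart.

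Low genes were left out by filterByExpr with a minimum count of 10 and a minimum total of 15, and the rest were tested with edgeR 4.0.16's quasi-likelihood test on TMM-scaled counts, with Benjamini-Hochberg adjusted p under 0.05 over all genes tested, in R 4.3.3. The test branch written for counts was used. Each arm was fitted on its own line's 6 libraries, the comparison of lines on the 6 controls, and the difference between responses on all 12 libraries. For ZNF165 a two-sided exact permutation test was added. Scripts were tested on simulated data. Transcript length, GC content and coordinates are those of GENCODE 29, in which 50076 of 50868 identifiers were found, and 49659 had a symbol. The trend on length and GC content was a natural spline with 5 degrees of freedom on each, fitted per library and used as an offset. Levels per kilobase used library totals.

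The precision of low counts is limited by totals of 12075813 to 19548445, and intervals and floors cover counting error only, as reads carry no molecular identifiers. Replicates were not duplicates of each other, with a chi-square per degree of freedom of 19.5 to 417. Deviations of same-numbered control libraries of the lines correlated across genes by 0.317, 0.558 and 0.320, all over 0.1. This is a sign of pairing from the data and not from the labels. The main comparison of the lines was fitted without a block on the numbers, which was run only as an alternative. MKN45 control replicate 1 nevertheless correlated best with an MKN28 control of another number, so this pairing is uncertain. In the knockdown and the overexpression the numbers were not taken to pair the groups.

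Named genes are all 38 members, ZNF165 and, from each list of partners, up to 2 rising and 2 falling genes with the largest fold changes among those past the threshold whose groups did not overlap, of which some are given here. One marker gene is not reported here. Members, lists and tests were chosen with earlier results of these data known. Alternatives were upper-quartile factors, library totals alone, DESeq2 1.42.0, no filter on low counts, removal of the length and GC trend, the replicate number as a block, 1 fit of all 12 libraries, each library left out, and knockdown replicates 2 and 3 left out together.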

Additional observations from a re-analysis of the deposited data

Results flagged for a closer look

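Each result here was flagged because the responses of the lines to a change of ZNF165 were not mirror images, by edgeR's test of that difference itself (adjusted p under 0.05). The value is the knockdown log2 fold change plus that of the overexpression. For ZNF165 itself, whose changes differed in size between the lines, this value was 1.67 (adjusted p 0.0421). It was below 0 for 4 H3K4 and H3K36 methyltransferases, at -2.66 for KMT2A, -3.29 for KMT2C, -2.15 for KMT2D and -2.94 for ASH1L. Among demethylases it was -1.37 for KDM2A, -1.95 for KDM3B, -2.63 for KDM4A, -2.15 for KDM5A, -3.05 for KDM5B, -1.72 for KDM6B and -5.74 for KDM7A. ASXL2 stood at -3.93. It was above 0 for KDM8, at 2.07, and for BAP1, at 1.80. ASXL2, KDM4A, KDM5B, KDM7A and KMT2D passed under all 20 alternatives run, and the other 9 did not pass under at least 1. The difference in library composition of the knockdown libraries, given by their correlation of level with length and GC content, moves with these values, and its part in them was not tested beyond the removal of the trend, under which KMT2A, ASH1L, KDM5A and KDM8 did not pass.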

How the results depend on the processing

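Counts of genes of the set past the threshold moved as follows. In the knockdown, with 2 higher and 22 lower, library totals alone left 0 higher, removal of the length and GC trend 1, and the trend with the replicate block 0. Of all genes these fits called 34.9%, 38.5% and 36.1% in either direction. Without both knockdown replicates 2 and 3 the median log2 fold change of the set was -1.38, against -0.15 over all genes. Fits that left out 1 library gave 0 to 4 higher and 12 to 24 lower, where 10.6% to 37.5% of all genes were lower. With the trend removed the log2 fold change of NSD2 turned to 0.17 and that of NSD3 to 0.066, and with the block as well NSD2 was at 0.21. In the overexpression, with 0 higher, DESeq2 gave 4 and the trend removed gave 1, and leaving out 1 library gave 0 to 2. Of all genes, DESeq2 called 11.6%, the trend removed 6.97% and the fits without 1 library 0.00621% to 8.26%. Between the control lines, with 0 higher and 8 lower, upper-quartile factors gave 5 lower and no filter on low counts gave 1 higher (ASXL3). The trend removed gave 3 higher and 12 lower, the replicate block 1 higher and 16 lower, and the block with the trend removed 6 higher and 12 lower. Upper-quartile factors called 17.1% of all genes lower. No filter called 28.4% in either direction, the trend removed 53.9%, the block 55.6% and both together 55.8%. Leaving out 1 library gave 3 to 10 lower, where 14.1% to 20.2% of all genes were lower. For the total of the arms' fold changes, with 2 higher and 12 lower, library totals alone and no filter each gave 0 higher, the replicate block 1, and the block with the trend removed 1. Without both knockdown replicates 2 and 3 that total gave 0 higher and 7 lower, and leaving out 1 library gave 0 to 3 higher and 6 to 23 lower. The fits with fewer libraries have less power by construction, and the cause of the other moves was not tested. Same-numbered libraries did not all deviate together in the knockdown (correlations 0.312, 0.479 and -0.407) or the overexpression (-0.0784, -0.0607 and 0.101). There the block gave 22 and 0 lower and 2 and 0 higher, and it called 46.8% and 0.0505% of all genes. Genes at a few counts, such as KDM7A in the knockdown and ASXL3, are limited by depth.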
